A study of Mus musculus with 2 samples.

Results

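Leukocytes leave the blood by rolling, firm adhesion and passage through the endothelium, and each step has its own molecules. P-selectin (Selp) and E-selectin (Sele) on activated endothelium catch P-selectin glycoprotein ligand 1 (Selplg) and CD44 on leukocytes. Icam1, Icam2 and Vcam1 are ligands of leukocyte integrins and hold the cell in place. Pecam1 sits at endothelial junctions and also on several leukocytes and platelets. Von Willebrand factor (Vwf) is the large glycoprotein that endothelial cells store beside P-selectin in Weibel-Palade bodies and that tethers platelets. Larger dural veins and venous sinuses drain the brain and skull toward the jugular veins.

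These 9 genes (Vwf, Icam1, Icam2, Vcam1, Selp, Sele, Selplg, Pecam1 and Cd44) were taken by symbol from the 33696 genes in the deposited files, and all 9 were present in both libraries. The samples were dura mater of female mice, 1 library after sham surgery (sham) and 1 library taken 14 days after the jugular vein was ligated (JVL-14). The age and strain of the mice, the number of mice per library and the interval after sham surgery are not given in the sources used here. Per the labels, the dura of perfused mice was detached from the skullcap and digested, cells of 2 meninges shared a well, and live single cells were sorted. Each library is an unreplicated pool, so no test between sham and JVL-14 was possible. Every interval below covers counting error only, not differences between mice or preparations, and is too narrow where a few cells hold most of the counts.

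The deposited libraries held 5495 barcodes and 33996641 UMIs (unique molecular identifiers, each 1 counted transcript) for sham, and 3004 barcodes and 18796260 UMIs for JVL-14. After filters, 4690 sham and 2459 JVL-14 cells were kept, with median depths of 4514 and 4499 UMIs, and 2 barcode sequences occurred in both libraries. The cells formed 39 clusters, of which 37 were named from marker genes as fibroblast-like, macrophage-like and so on; the suffix is dropped here, and none of the 9 genes was used to form or name a cluster. Names were rebuilt without an annotation by the authors. Levels are CPM, UMIs of a gene per 1000000 UMIs summed over the cells of a class in a library. CPM is not scaled by gene length, so levels are compared between classes and libraries, not between genes. In 13 classes both libraries held at least 30 cells. A gene counted as measured in a class with at least 20 UMIs over both libraries and a mean of at least 20 CPM, and as higher or lower when the JVL-14 over sham ratio passed 1.5-fold. Of the 117 pairs of a class and a gene, 35 were measured, 7 were higher and 6 lower in JVL-14, and the interval left out 1 for 9 of those 13. Of all measured genes, 3.84% (fibroblasts) to 32.0% (blood endothelial cells) passed 1.5-fold either way in the classes with a measured member.

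**Figure D1:**
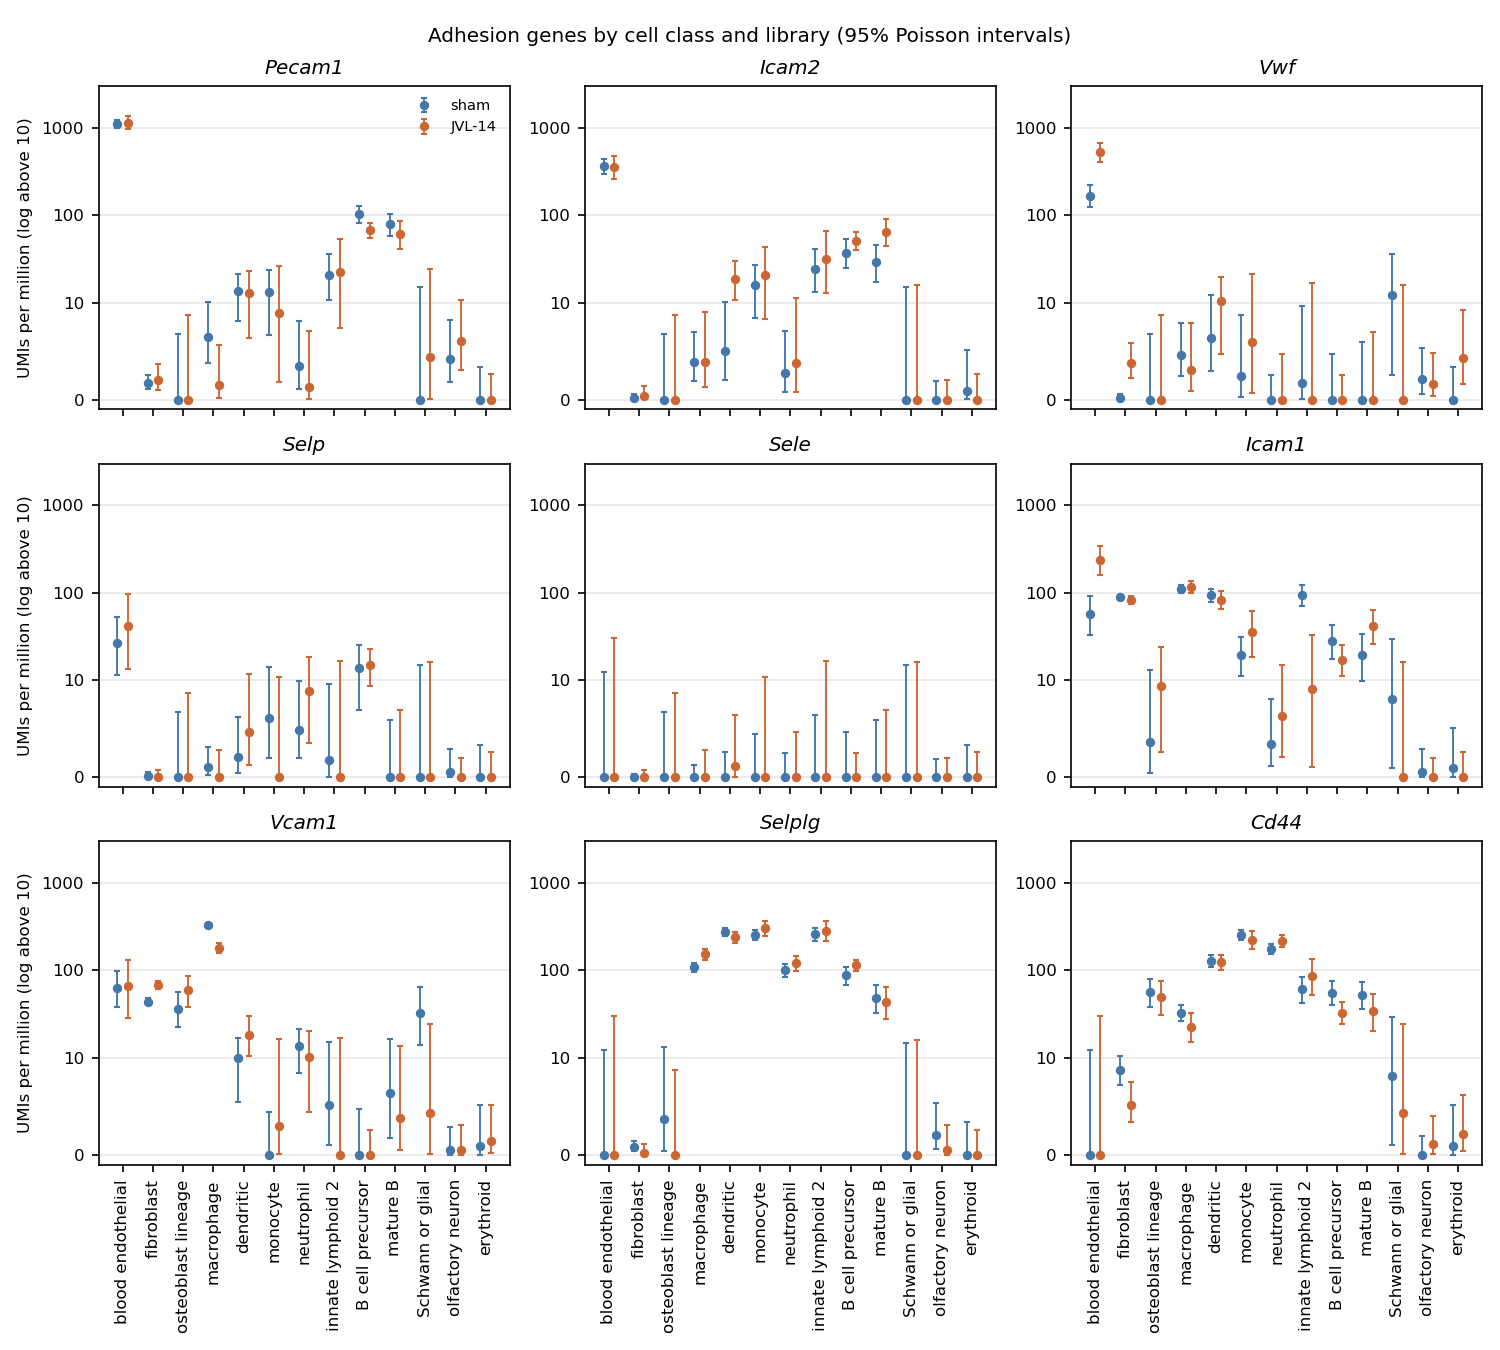
Level of each gene in 13 cell classes, in CPM over summed cells (log axis above 10, linear below), with points for sham and JVL-14 and bars for 95% Poisson intervals. Pecam1, Icam2 and Vwf had their highest points in blood endothelial cells, Vcam1 in macrophages, and Selplg and Cd44 in leukocytes, while Sele lay at or near 0 in every class.

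Blood endothelial cells (95 sham and 42 JVL-14 cells, led by Plvap, Igfbp3, Flt1, Ptprb and Emcn) had like levels of the constitutive molecules Pecam1 and Icam2 in both libraries. Vwf was 3.16-fold and Icam1 4.22-fold higher in JVL-14, but both values rested on few cells and both shrank once cells with high doublet scores were kept. Of 5 genes measured in this class, 2 were higher and none lower, where 17.1% of all 3522 measured genes were higher and 14.9% lower. The median log2 ratio was 0.11 over the 5 genes and 0.08 over all genes measured. A large share of all genes passed 1.5-fold in this class of few cells.

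Pecam1 gave 332 UMIs in sham and 138 in JVL-14, or 1107 and 1137 CPM, a ratio of 1.03 (95% interval 0.836 to 1.26). Its UMIs were in 82.1% of the sham endothelial cells and 83.3% of those of JVL-14. Icam2, which is present on resting endothelium, stood at 363 and 354 CPM, a ratio of 0.975 (0.669 to 1.40), with a UMI in 60.0% and 59.5% of cells. Both intervals include 1 and leave out a difference of 1.5-fold in either direction. In olfactory neurons, which should lack these genes and are deeper (medians of 9188 and 8359.5 UMIs against 2460 and 2294.5 in endothelium), Pecam1 was seen in 4.06% and 5.09% of cells and Icam2 in none of 197 and 216.

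Vwf was counted 50 times in sham, in 8 of 95 endothelial cells that held 21, 12, 7, 4, 2, 2, 1 and 1 UMIs. In JVL-14 it was counted 64 times, in 7 of 42 cells that held 22, 22, 8, 7, 3, 1 and 1 UMIs. A few cells therefore set the level: the 5 richest held 92.0% of the Vwf UMIs in sham and 96.9% in JVL-14. This made 167 CPM for sham and 527 for JVL-14, a ratio of 3.16 (2.15 to 4.68). Without the 5 richest cells of each library 4 and 2 UMIs were left, a ratio of 1.43. In olfactory neurons Vwf was seen in 2.03% of cells in sham and 1.39% in JVL-14.

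Icam1 was counted 17 times in sham, in 6 cells with 4, 4, 3, 3, 2 and 1 UMIs. In JVL-14 it was counted 29 times in 11 cells, with 8, 6, 4, 2, 2 and 2 UMIs in the richest. The share of cells with a UMI was 6.32% (exact binomial interval 2.35 to 13.2%) in sham and 26.2% (13.9 to 42.0%) in JVL-14, and in olfactory neurons it was 0.508% in sham and 0 in JVL-14. This made 56.7 CPM for sham and 239 for JVL-14, a ratio of 4.22 (2.24 to 8.18). The class was no deeper in JVL-14 (median 2294.5 UMIs) than in sham (2460).

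The doublet filter changed the ratios of Vwf, Icam1, Vcam1 and Selp in this class. It removed the barcodes in the top 5% of doublet scores of each library. When these barcodes were kept and the cells clustered again, the blood endothelial class held 107 sham and 50 JVL-14 cells. The added 15 sham cells carried 43 Vwf, 39 Icam1, 11 Vcam1 and 9 Selp UMIs and no UMI of the pan-leukocyte gene Ptprc, and 1 of them held all 15 UMIs of the fibroblast collagen Col1a2. The added 8 JVL-14 cells carried 7 Vwf, 8 Icam1, 36 Vcam1, 1 Selp and 4 Sele UMIs, with 1 Ptprc UMI and none of Col1a2. All 36 Vcam1 UMIs were in 2 of these cells. Vwf was then 1.68-fold higher in JVL-14 (1.22 to 2.32). The Icam1 ratio was 1.46 (0.935 to 2.25), under the 1.5-fold limit and with an interval that includes 1. Vcam1 went from a near level ratio to 82.7 and 267 CPM (30 and 44 UMIs), 3.23-fold higher in JVL-14 (1.99 to 5.33). Selp turned to lower in JVL-14, 46.8 and 36.5 CPM (17 and 6 UMIs), a ratio of 0.778 (0.251 to 2.07). The added cells were deeper than the retained ones, with medians of 4233 against 2496.5 UMIs in sham and 4206.5 against 2294.5 in JVL-14. Whether they were doublets was not tested.

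Of the selectins and Vcam1, little was counted in the retained endothelial cells. Selp gave 8 UMIs in 4 sham cells and 5 UMIs in 5 JVL-14 cells, 26.7 and 41.2 CPM, a ratio of 1.55 from too few UMIs to count as measured. Vcam1 gave 19 UMIs in 8 sham cells and 8 UMIs in 4 JVL-14 cells, 63.3 and 65.9 CPM, a ratio of 1.04 (0.394 to 2.49). Neither ratio held with the doublet-scored cells kept, as given above. Sele, Selplg and Cd44 were at 0 in this class in both libraries. At 3 counts, a count of 0 allows up to 10.0 CPM for sham and 24.7 CPM for JVL-14, so endothelial Sele was not detectable at this depth. Over all retained cells Sele gave 1 UMI in sham and 2 in JVL-14, and 1 JVL-14 endothelial cell removed by its doublet score held 4.

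RefSeq promoters were at hand for 4 of the 9 genes. Those of Icam1 and Sele are shown because both genes are switched on in activated endothelium, and here the first was counted there and the second was not. Each is the 250 bases before the gene's start in build GRCm38.p6 (not the build of the files), 5′ to 3′ on the gene's strand. Capitals mark matches, on either strand, to TGACTCA, the AP-1 motif, or to TATAAA, the TATA box.
Icam1, chr9:21015690-21015939, plus strand: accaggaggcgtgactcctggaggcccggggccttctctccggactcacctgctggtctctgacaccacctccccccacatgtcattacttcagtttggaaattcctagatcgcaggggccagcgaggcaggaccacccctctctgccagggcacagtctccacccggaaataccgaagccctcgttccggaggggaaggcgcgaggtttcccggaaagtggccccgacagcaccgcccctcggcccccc
Sele, chr1:164047984-164048233, plus strand: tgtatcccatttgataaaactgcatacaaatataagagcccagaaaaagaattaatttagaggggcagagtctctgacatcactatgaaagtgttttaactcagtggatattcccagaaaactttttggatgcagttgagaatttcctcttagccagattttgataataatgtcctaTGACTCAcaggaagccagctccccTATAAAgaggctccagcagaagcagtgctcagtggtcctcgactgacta
Sele held TGACTCA at positions -73 to -67 and TATAAA at -49 to -44, counted from the gene's start, and Icam1 held neither in this window. Of 32851 RefSeq promoters of this length, 4.46% held TGACTCA and 12.4% held TATAAA. A match describes letters, not a bound site, and the motifs were chosen with these sequences in view.

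Vwf, Selp and Vcam1 did not spread evenly over the endothelium. Clustering the 137 blood endothelial cells alone, again without the 9 genes, gave 5 subclusters, and 1 of them, led by Ptn, Mal, Tmem252, Lef1 and Spock2, held 31 cells. These 31 cells held 97 of the 114 Vwf UMIs (85.1%), 11 of 13 Selp UMIs (84.6%), 21 of 27 Vcam1 UMIs (77.8%) and 28 of 46 Icam1 UMIs (60.9%). The Icam1 share differed between the libraries, with 21 of 29 UMIs (72.4%) in JVL-14 and 7 of 17 (41.2%) in sham. In sham, subcluster 4, of 7 cells, held as many Icam1 UMIs, at 151 CPM, and over both libraries Icam1 was seen in 8 of 31 cells of the Ptn-led subcluster and in 9 of all others. The Ptn-led subcluster held only 20.4% of the Pecam1 and 23.7% of the Icam2 UMIs, close to its 22.6% of cells. Among lists of venous, capillary and arterial genes it scored highest for venous genes, with the arterial list next. The score was below the naming limit, so the subcluster is left unnamed. No list for other kinds of blood vessel was scored. After Spock2, its leading genes were Cldn5, Slc2a1, Fbln5, Slco1a4 and Vwf itself. The venous genes Tmem252 (720 CPM), Lrg1 (671 CPM), Nr2f2 (266 CPM), Il1r1 (128 CPM) and Ackr1 (4 UMIs in 1 cell) were highest here. Ephb4, also venous, was not (148 CPM against 275 CPM in another subcluster). All arterial genes listed but Efnb2 were highest here too (Sema3g at 207 CPM, Hey1 on 2 UMIs). Of the capillary genes only Car4 was (227 CPM, in 3 cells).

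That subcluster made up 17 of 95 sham endothelial cells (17.9%) and 14 of 42 JVL-14 cells (33.3%). Within it Vwf stood at 645 CPM in 5 of 17 sham cells and at 1293 CPM in 6 of 14 JVL-14 cells. Icam1 stood at 133 CPM (7 UMIs) and 431 CPM (21 UMIs). Selp and Vcam1 were lower in JVL-14 in these few cells, with 152 CPM (8 UMIs) and 61.6 CPM (3 UMIs) for Selp and 266 CPM (14 UMIs) and 144 CPM (7 UMIs) for Vcam1. Pecam1 was near level, at 968 and 924 CPM. The median depth of these cells was 2600 UMIs in sham and 3727.5 in JVL-14, and its part in the differences was not tested.

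Several of these transcripts were often in the same cells. Of the 15 blood endothelial cells with Vwf, 6 also held Icam1, 6 Selp and 6 Vcam1. Of the 122 without Vwf, 11 held Icam1, 3 Selp and 6 Vcam1. Icam2 showed no such gap, at 60.0% of cells with Vwf and 59.8% of those without. Cells with Vwf were deeper, with a median of 4846 against 2241.5 UMIs, and the part of depth in this overlap was not tested.

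**Figure D2:**
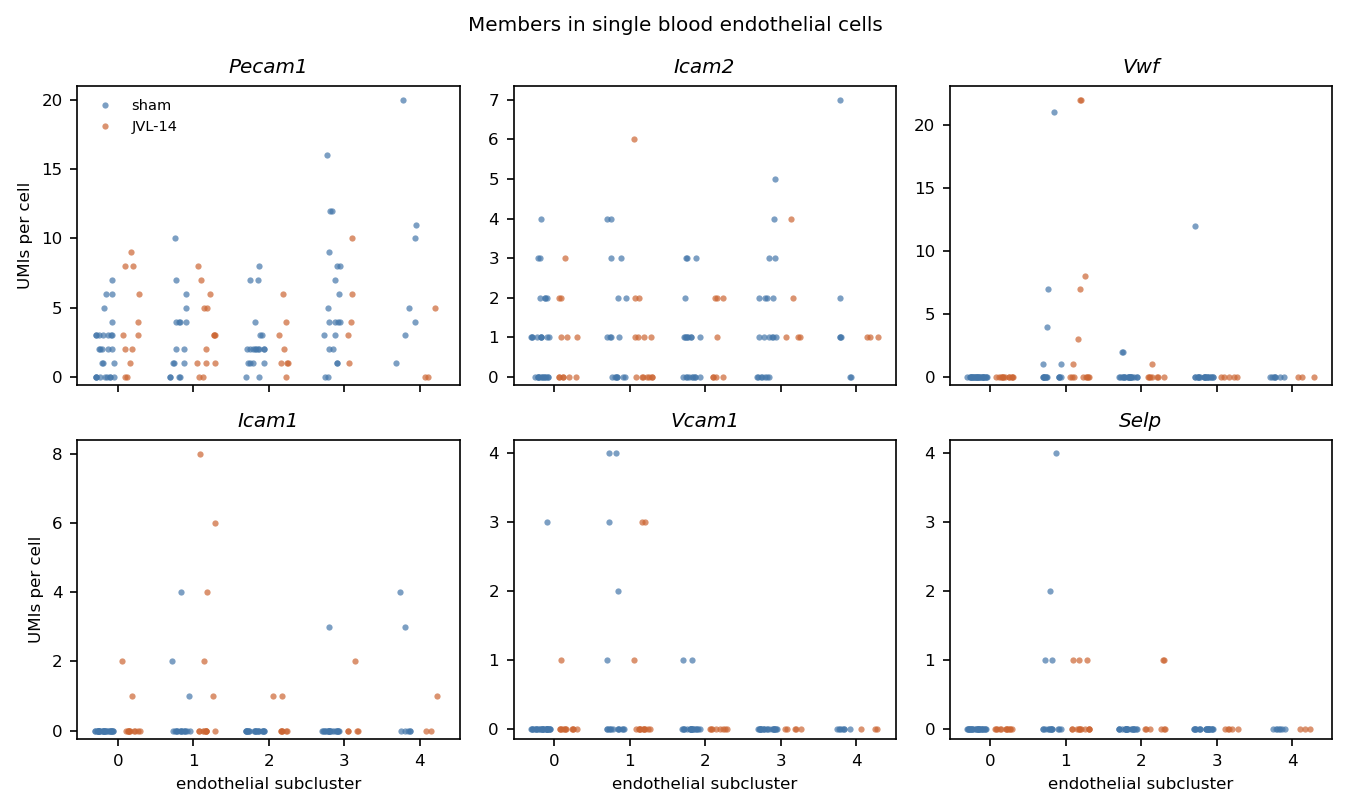
UMIs of 6 genes in each of 137 blood endothelial cells, by subcluster (horizontal, 0 to 4) and library (colour), with points spread sideways for legibility and no error bars. Most Vwf, Vcam1 and Selp points above 0 lie in subcluster 1 (led by Ptn), where 2 JVL-14 cells held 22 Vwf UMIs each; Icam1, Pecam1 and Icam2 lie above 0 in all 5.

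A further 71 sham cells formed a capillary endothelial cluster (led by Fabp4, Ly6c1 and Timp4, with Gpihbp1 and Car4), which held only 3 JVL-14 cells and was not compared. Skeletal muscle cells differed in the same way, with 248 sham and 3 JVL-14 cells. The capillary cluster of sham matched blood endothelium in Pecam1 (1164 CPM) and Icam2 (334 CPM) but gave 2 Vwf UMIs (18.0 CPM), 1 Icam1 UMI and no Selp or Vcam1 UMI. Over both endothelial classes, the endothelial Vwf ratio was 3.97 and that of Icam1 5.20. In dissociated tissue, fewer cells of a type recovered and fewer in the tissue cannot be told apart.

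Values of other cell types in blood endothelium bear on these counts. Erythroid markers (8 genes, mostly haemoglobins) summed to 40648 CPM for sham and 643 for JVL-14, and without haemoglobin, mitochondrial, ribosomal and immunoglobulin genes in the total the ratios were 2.96 for Vwf and 3.95 for Icam1. Of 9 platelet and megakaryocyte markers, 7 were at 0 in each library, Ppbp, Gp9 and Treml1 among them, with sums of 13.3 and 33.0 CPM. Of 7 lymphatic endothelial markers Prox1, Ccl21a, Reln, Pdpn and Lyve1 were at 0 in both. Fibroblast markers summed to 73.3 and 49.4 CPM and macrophage markers to 897 and 1022 CPM. The 7 skeletal muscle markers summed to 200 CPM for sham and 16.5 for JVL-14, with 2 at 0 in sham and 6 in JVL-14. The part of these transcripts in the ratios was not tested.

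Outside the endothelium Vwf was sparse. Fibroblasts gave 19 Vwf UMIs in JVL-14, and 18 of them came from 1 cell that also held 57 Col1a2, 6 Cdh5 and 4 Pecam1 UMIs, markers of both fibroblasts and endothelium. Macrophages gave 13 UMIs in 10 sham cells and 4 UMIs in 4 JVL-14 cells. Blood and capillary endothelial cells together held 58.4% of retained sham Vwf UMIs and 59.8% of those of JVL-14.

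Vcam1, the ligand of the integrin VLA-4, had most of its UMIs in macrophages and fibroblasts, which outnumber endothelial cells in these libraries. Its level was lower in JVL-14 macrophages and higher in JVL-14 fibroblasts. Macrophages held 55.5% of all Vcam1 UMIs in sham and 35.1% in JVL-14, and fibroblasts 33.1% and 53.0%. Blood endothelial cells held 1.15% and 1.22%. By level the order among the 13 compared classes was another, with macrophages first and blood endothelium second. Blood endothelium had a mean of 64.6 CPM over the libraries, near that of fibroblasts (43.9 CPM in sham, 68.9 in JVL-14). Choroid plexus cells of sham, not compared, are given below.

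In macrophages Vcam1 gave 917 UMIs in 717 sham cells and 231 UMIs in 345 JVL-14 cells, 326 and 179 CPM, a ratio of 0.547 (0.471 to 0.632). It was seen in 31.4% of sham and 20.0% of JVL-14 macrophages, and after thinning each cell to 1000 UMIs in 18.9% and 11.8%. In olfactory neurons it was seen in 0.508% and 0.463% of cells. Of 4 genes measured in macrophages Vcam1 alone was past the fold limit, where 4.75% of 5197 measured genes were lower. With at least 500 genes required per barcode, which left 527 sham and 223 JVL-14 macrophages, the ratio was 0.721 and within the limit. Erythroid markers summed to 4642 CPM in sham macrophages and 588 in those of JVL-14, and their part in the ratio was not tested; without haemoglobin, mitochondrial, ribosomal and immunoglobulin genes in the total it was 0.549. The level was lower in all 3 macrophage clusters. It was 308 and 72.4 CPM in the cluster led by Ccl8, Cd209f and Cd209g, a ratio of 0.235. It was 349 and 216 CPM in the cluster with C1qa and Cx3cr1, a ratio of 0.619. It was 144 and 62.1 CPM in the small cluster led by Cxcl9, a ratio of 0.431 whose interval includes 1 (26 and 6 UMIs).

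In fibroblasts Vcam1 stood at 43.9 CPM in sham (546 UMIs in 234 of 1796 cells), against 68.9 CPM in JVL-14 (349 UMIs in 125 of 796 cells), a ratio of 1.57 (1.37 to 1.80). Among 6255 genes measured in fibroblasts, 1.15% were higher and 2.69% lower. The ratio differed between clusters of the class. In clusters 7 (led by Inmt, Plac9, Tagln and Ccl19) and 20 (led by Apod, Ptgds and Slc6a13), Vcam1 stood at 175 CPM (sham) and 264 CPM (JVL-14), a ratio of 1.51 (1.29 to 1.77). In all other fibroblasts it stood at 20.8 and 14.2 CPM, a ratio of 0.680 (0.498 to 0.916), or 0.817 (0.593 to 1.11) without cluster 19, described next. These 2 clusters, grouped after their values were seen, were 16.5% of sham and 21.2% of JVL-14 fibroblasts and held 326 of 546 and 293 of 349 Vcam1 UMIs.

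Averaged within fibroblast clusters, the ratio turned to 0.752. In cluster 19, led by the interferon-induced genes Ifit3 and Ifit1, 46 UMIs in 106 sham cells met 0 UMIs in 23 JVL-14 cells, and without it the average was 0.863. With a 5% mitochondrial limit the pooled ratio was 1.26, and with each library clustered alone 1.34. A single JVL-14 cell of cluster 7 held 44 UMIs, and without the 5 richest cells of each library the pooled ratio was 1.24, under the limit. The level was above that of sham in 2 of the 8 fibroblast clusters compared and below it in the other 6, but the interval left out 1 in clusters 7 and 19 only. Cluster 20 had a ratio of 1.39 (0.925 to 2.06), and cluster 11 rested on 1 UMI in sham and 0 in JVL-14. In cells of the osteoblast lineage it stood at 36.5 CPM (20 UMIs) and 59.0 CPM (25 UMIs), a ratio of 1.62 (0.862 to 3.07), an interval that includes 1. There 11.9% of measured genes were higher. Choroid plexus cells, found only in sham, gave 139 CPM with a UMI in 48.1% of 79 cells.

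**Figure D3:**
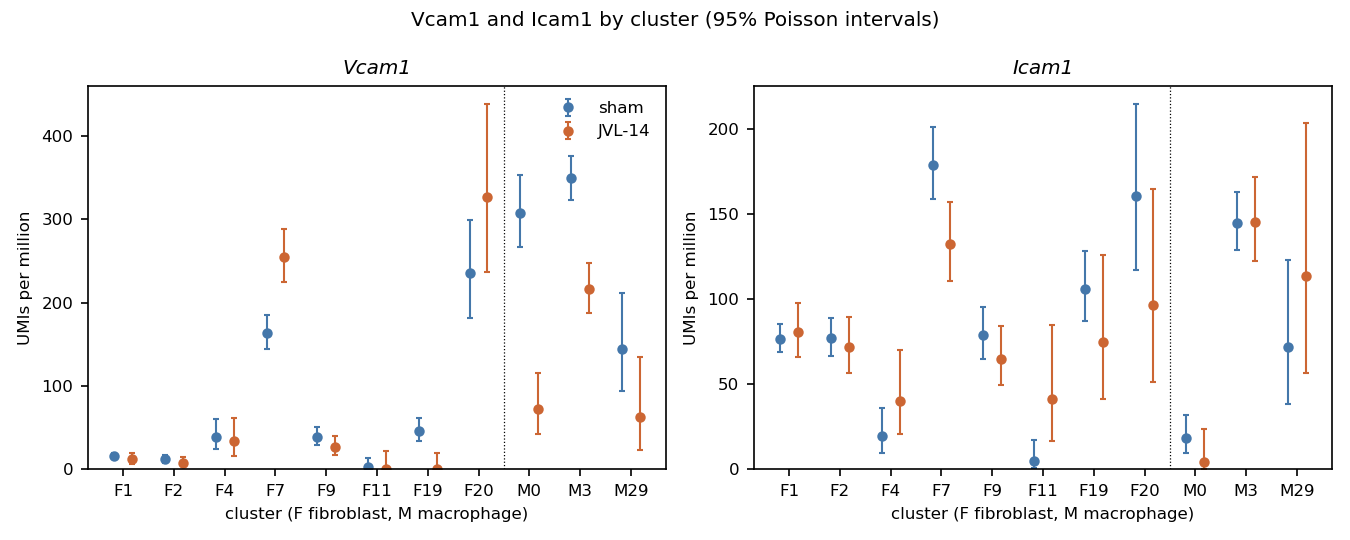
Vcam1 and Icam1 level, in CPM, in each fibroblast (F) and macrophage (M) cluster with at least 20 cells per library, with 95% Poisson intervals and colours for the libraries; cluster 30, with 3 JVL-14 cells, is left out. Vcam1 is lower in JVL-14 in all 3 macrophage clusters and higher in fibroblast clusters 7 and 20 only (the interval of the ratio includes 1 in cluster 20 and macrophage cluster 29), while Icam1 in cluster 3 macrophages is alike.

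Icam1, the ligand of LFA-1 and Mac-1, was measured in 8 of the 13 classes, as was Cd44. Fibroblasts held 64.3% of its UMIs in sham and 54.6% in JVL-14, with 89.2 and 82.5 CPM, a ratio of 0.925 (0.824 to 1.04), and a UMI in 30.0% and 29.9% of cells. The interval leaves out a 1.5-fold difference in either direction. In cluster 7, where Vcam1 was higher, Icam1 stood at 179 and 132 CPM, a ratio of 0.739 (0.595 to 0.913). Macrophages had 111 and 117 CPM (1.06) and dendritic cells 93.6 and 83.1 CPM (0.887).

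Group 2 innate lymphoid cells (led by Areg, Gata3 and Tnfrsf18) had the lowest Icam1 ratio. They gave 54 Icam1 UMIs in 34 of 142 sham cells and 2 UMIs in 2 of 51 JVL-14 cells, 93.3 and 9.04 CPM, a ratio of 0.0969 (0.0114 to 0.367). In this class 18.9% of 4271 measured genes were lower, and the other 3 of the 9 genes measured there (Selplg, Cd44 and Icam2) stayed within 1.5-fold. The depth of these cells was similar, with medians of 4033.5 and 4318 UMIs. The ratio was 0.501 with coarser clusters and 0.452 with each library clustered alone, but those classes held other cells. With coarser clusters the class held 180 sham and 74 JVL-14 cells, and no T cell class was named. With each library clustered alone it held 139 and 74 cells, and T cells were a class of 40 in sham and 0 in JVL-14. In the main clusters T cells (38 and 23 cells) held 8 and 12 Icam1 UMIs, and their part in these ratios was not tested. In mature B cells Icam1 stood at 19.2 CPM (12 UMIs) and 41.5 CPM (22 UMIs), a ratio of 2.16 (1.02 to 4.79), where 16.5% of measured genes were higher. It fell under the limit with a 5% mitochondrial limit (1.46) and in cells thinned to 1000 UMIs (1.29). The 5% limit also changed the classes: mature B cells were 292 in sham and 313 in JVL-14, against 172 and 157. B cell precursors were then 19 and 45. In monocytes the Icam1 ratio was 1.84 (0.793 to 4.13), with 12.0% of genes higher there. It was 1.11 with coarser clusters and 1.31 with each library clustered alone. Neither setting named a dendritic class, and their monocyte classes held 238 and 118 cells and 228 and 112 cells, against 94 and 40. In B cell precursors the Icam1 ratio was 0.611 (0.330 to 1.14). It was 0.296 with doublet-scored cells kept, 0.294 with finer clusters and 0.144 with a 5% mitochondrial limit (9 and 3 UMIs).

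**Figure D4:**
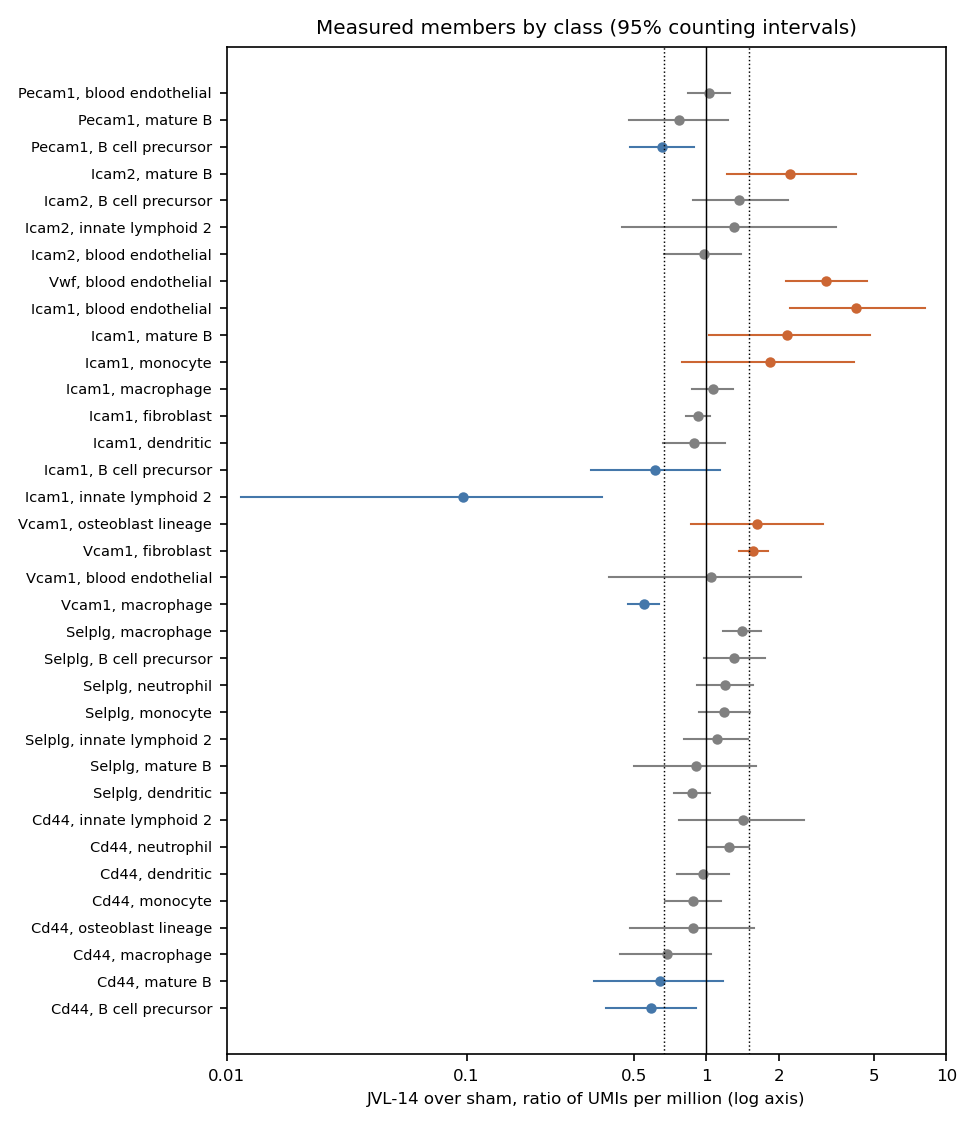
Ratio of JVL-14 over sham levels (log axis) for the 35 measured pairs of a gene and a class, with 95% counting intervals; dotted lines mark 1.5-fold either way, and orange and blue mark ratios past them. Icam1 in group 2 innate lymphoid cells lies lowest at 0.0969 and Icam1 in blood endothelial cells highest at 4.22, while no Selplg ratio passes the limit.

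B-lineage cells carried Pecam1, Icam2 and Selp. B cell precursors, like erythroid and neutrophil precursors a cell type found in bone marrow, numbered 208 in sham and 282 in JVL-14. The origin of the B cell precursors here was not tested. In them Pecam1 stood at 103 and 66.8 CPM, a ratio of 0.650 (0.479 to 0.884), where 13.5% of 5600 measured genes were lower. Dividing precursors (cluster 18, led by H2ac8, Pclaf and Myl4, with Top2a and Igll1) had less Pecam1 than the rest and were 35 cells in sham and 97 in JVL-14. Within the clusters the ratios were 0.833 and 0.792, both intervals including 1, and thinned to 1000 UMIs the ratio of the class was 1.07. Cd44 was lower in precursors, 55.8 and 32.7 CPM, a ratio of 0.586 (0.381 to 0.903). Of the 5 genes measured there Pecam1, Cd44 and Icam1 were lower.

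Icam2 in mature B cells stood at 28.8 CPM (18 UMIs in 17 of 172 cells) and 64.1 CPM (34 UMIs in 26 of 157 cells), a ratio of 2.22 (1.22 to 4.18). In B cell precursors it stood at 36.8 and 50.4 CPM, within the fold limit. B cell precursors also held more Selp UMIs than any other class, 11 of 44 in sham and 22 of 38 in JVL-14. They came from 11 of 208 and 19 of 282 cells, and no sham cell held more than 1.

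Selplg and Cd44, the leukocyte side of the selectin contact, stayed within 1.5-fold in most classes measured. Selplg was highest in T cells (424 CPM) and neutrophil precursors (390 CPM) of sham, classes with too few JVL-14 cells to compare. It stood at 273 and 239 CPM in dendritic cells, at 257 and 285 CPM in group 2 innate lymphoid cells and at 254 and 302 CPM in monocytes. Neighbours in this order have overlapping intervals. Neutrophils, whose rolling depends on Selplg, stood lower at 101 and 121 CPM. None of 7 measured Selplg ratios passed the limit. The macrophage ratio of 1.41 (1.17 to 1.69; 108 and 152 CPM) came nearest, and its interval left out 1.

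Cd44, the hyaluronan receptor that also binds selectins, was highest in monocytes (255 and 225 CPM, a ratio of 0.881, 0.669 to 1.15, that turned to 1.43 in thinned cells) and neutrophils (176 and 218 CPM, a ratio of 1.24, 1.02 to 1.51). Mature neutrophils (cluster 21, with Retnlg and Il1b) had more of it than the Camp-rich cluster 13, 284 against 148 CPM for sham and 388 against 168 CPM for JVL-14. Cd44 was lower past the limit in B cell precursors, above, and in mature B cells, at 0.642 (0.340 to 1.17), where 7.39% of genes were lower. The other measured classes stayed within 1.5-fold.

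Some genes of the transcriptome followed the 9 closely over the 26 sums of a class in a library, by Pearson correlation of log2(CPM + 10), which describes these sums only since those of 1 library share depth and preparation. Nearest to Vwf were Pcdh12 (0.970), Tmem252 (0.968) and Exoc3l (0.968). Nearest to Pecam1 was Gimap4 (0.926), to Selp Pde2a (0.910) and to Icam2 Arhgap27 (0.916). Selplg lay nearest to the leukocyte gene Laptm5 (0.967), Cd44 to Rassf5 (0.903) and Vcam1 to Dab2 (0.901). Icam1 had the loosest best match, Clec2d (0.846). Among the 9 themselves, Pecam1 and Icam2 were closest (0.963), followed for Selplg by Cd44 (0.830).

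Partners of these molecules were read from a list of 68 other genes of leukocyte trafficking. In blood endothelium 20 were measured, 1 was higher and 1 lower, a smaller share each way than the 17.1% and 14.9% of all measured genes. The one above the limit was St3gal6, a sialyltransferase that helps build selectin ligands, at 96.7 and 181 CPM (1.88, 1.03 to 3.38), and the one below was Hyal2, a hyaluronidase (0.577, 0.214 to 1.34). The junction and surface genes Cd34 (1.38, 1.08 to 1.77) and Esam (1.20) stayed within it, as did Mcam (0.668) and St3gal4 (0.682). The median log2 ratio of the 20 was -0.10 against 0.08 over all measured genes.

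In macrophages 22 of the 68 were measured, 2 higher (3.98% of all measured genes were) and 3 lower. St3gal4 (2.17, 1.44 to 3.27) and the junction protein F11r (1.95, 1.52 to 2.50) were higher. The hyaluronan receptor Lyve1 (130 and 56.4 CPM, 0.434), the branching enzyme Gcnt1 (0.509) and the membrane linker Ezr (0.640) were lower. In fibroblasts 19 were measured and 1 was past the limit, Cd34, at 80.1 and 38.3 CPM (0.478, 0.408 to 0.558). There 2.69% of all measured genes were lower. Cd34 was among the leading genes of fibroblast cluster 30, which held 61 sham and 3 JVL-14 cells. The part of that cluster in the pooled Cd34 ratio was not tested. In monocytes 23 were measured, none was higher and 4 were lower (10.9% of all measured genes were), among them the hyaluronan-binding proteoglycan Vcan (0.306, 0.127 to 0.640). In neutrophils none of 18 measured genes was past the limit, nor was either of the 2 measured members, where 14.2% of all genes were. In dendritic cells none of 3 measured members was past the limit; of all measured genes 10.6% were higher and 11.3% lower. There the integrin chain Itgam was lower (0.604, 0.460 to 0.787).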

How the data were processed

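The deposited matrices hold UMI counts per gene and filtered barcode, not normalised, written by Cell Ranger 8.0.0 per the file headers and based on mm39, as the submitters' processing notes list it. The gene annotation was not given in the sources used here. Barcodes under 200 genes (266 sham, 244 JVL-14) or over 10% mitochondrial UMIs (278 and 152) were dropped. Scrublet's own threshold marked 0.0910% and 0.166% of barcodes, so the top 5% of scores per library were removed (261 and 149); low-scoring doublets can remain. With scanpy 1.11.5, 1983 variable genes (the 9 genes and the trafficking list left out), 30 components, 15 neighbours and Leiden resolution 1 gave 39 clusters. A cluster was named where its marker score was at least 3.5 with at least 3 markers raised; these limits were set after seeing the data. CPM ratios carry exact conditional binomial 95% intervals, levels exact Poisson and shares exact Clopper-Pearson intervals; repeated amplification is covered by UMIs. The ratio and interval code was checked on simulated counts.

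The members and lists were chosen with earlier results of these data known. Named genes are the 9 members, the 3 highest and 3 lowest of the trafficking list in blood endothelial, macrophage, fibroblast and leading classes, of which those past the limit or nearest it are described, and the 3 genes most like each member. One list gene that meets this rule is not reported here. Alternatives concerned the doublet, gene and mitochondrial filters, cluster resolution, separate clustering, the CPM total, thinning to 1000 UMIs (seed fixed), the richest cells, averaging within clusters and the limits on counts and fold.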

Additional observations from a re-analysis of the deposited data

Results flagged for a closer look

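Icam1 lay past 1.5-fold in opposite directions in different classes, with a JVL-14 over sham ratio of 4.22 in blood endothelial cells, 2.16 in mature B cells and 0.0969 in group 2 innate lymphoid cells. Vcam1 did so as well, with 1.57 in fibroblasts and 0.547 in macrophages. The endothelial Icam1 value fell to 1.46 with doublet-scored cells kept, and that of mature B cells to 1.46 with a 5% mitochondrial limit and 1.29 in thinned cells, all under 1.5-fold. Fibroblast Vcam1 turned to 0.752 averaged within clusters. With 1 library per group these differences between classes were not tested.

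Some counts fell in barcodes that the filters left out. Over all genes 17.5% of the deposited UMIs were in such barcodes. For Vwf the share was 27.9% (76 of 272 UMIs), of which 71 were in barcodes removed by doublet score. For Selp it was 21.2% (22 of 104 UMIs, all by doublet score) and for Sele 62.5% (5 of 8 UMIs, all by doublet score), 4 of these in 1 JVL-14 endothelial cell.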

How the results depend on the processing

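No paired analysis was possible because each group has 1 library. Endothelial Vwf and Icam1 stayed higher in JVL-14 under every alternative run, over 1.43 to 3.97 for Vwf and 1.46 to 20.5 for Icam1. The 3.97 covers blood and capillary endothelium together, with 71 sham and 3 JVL-14 capillary cells. With doublet-scored barcodes kept the Vwf and Icam1 ratios were 1.68 and 1.46, and the interval of the latter included 1. Without the 5 richest cells they were 1.43 and 20.5, from 4 and 2 and from 1 and 7 UMIs. Macrophage Vcam1 stayed lower throughout, at 0.721 with at least 500 genes, 0.429 as a mean over cells, 0.460 without the 5 richest cells and 0.375 averaged within clusters. Among ratios within 1.5-fold or not measured, the direction turned for endothelial Selp with doublets kept (0.778) and for monocyte Cd44 with doublets kept (1.01), as a mean over cells (1.07) and in thinned cells (1.43, from 23 and 14 UMIs), and for monocyte Selplg with coarser clusters (0.964). Endothelial Vcam1 was 3.23 with doublets kept and 0.718 as a mean over cells, and 0 JVL-14 UMIs were left in thinned cells or without the 5 richest. Among ratios past 1.5-fold, it turned for fibroblast Vcam1 averaged within clusters (0.752, or 0.863 without cluster 19, added after seeing the data) and for Pecam1 in B cell precursors thinned (1.07) or with libraries clustered separately (1.44, on 10 sham UMIs). Endothelial Pecam1 ranged from 0.897 to 1.13 and Icam2 from 0.754 to 1.09, on both sides of 1, and Icam2 in mature B cells from 1.47 to 2.24. Of 35 pairs, 13 passed 1.5-fold, where 3.84% to 32.0% of all measured genes did so by class. A limit of 2-fold left 5, at least 50 UMIs left 8 of 28, and at least 1 UMI gave 52 of 87. The share over all genes was not counted under these other limits. Icam1 in endothelium could not be compared in thinned cells, with no sham UMI left, nor Selp without its 5 richest cells. Classes of the same name held other cells under some alternatives, as with the monocytes, mature B cells and group 2 innate lymphoid cells above. With libraries clustered separately, B cell precursors were 21 in sham and 251 in JVL-14. The cause of these shifts was not tested. Depth limits Selp and Sele in all classes.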
